A study of Mus musculus with 6 samples.

Results

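The genes described here are the Wnt ligands, their receptors and antagonists, and the proteins that carry the signal to the nucleus, in HT22 cells given the compound AA147. They were chosen by symbol, as families (Wnt, Fzd, Dkk, Sfrp, Rspo, Axin, Dvl, Tcf7 and Lgr) and as single names such as Lrp6, Ryk and Ctnnb1. The rule uses no measured value, but the genes were chosen with earlier results of these data known. The rule found 32 genes among the 16472 of the authors' deposited table. RefSeq lists 68 mouse genes that match the rule, and the other 36 have no row in this table and are not analysed here. Of the 32 genes, 29 had an adjusted p-value in that table, and 23 had a mean normalized count of at least 100.

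HT22 is an immortalised mouse hippocampal line used as a model of neurons, here grown in serum-containing medium in 12-well plates. The compound AA147 is used to switch on the stress regulators ATF6 and NRF2. The 3 AA147 libraries came from cultures of this line exposed for 16 h at a concentration that the labels give as 10 mM, a unit that could not be checked here, and the 3 vehicle libraries from cultures given DMSO for the same 16 h. The mRNA libraries were not strand-specific. Nothing in the labels says whether replicates were separate cultures, so the p-values measure only the spread between these libraries.

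Wnt proteins are secreted, lipid-modified signals. In the canonical branch a Wnt binds a Frizzled and an LRP co-receptor, Dishevelled is recruited, the Axin and APC complex that destroys beta-catenin is held back, and beta-catenin (Ctnnb1) works with TCF/LEF factors on target genes. Other branches use Ryk or Ror receptors without beta-catenin, R-spondins acting through Lgr receptors keep Frizzleds on the cell surface, and in the hippocampus Wnt signals are known for roles in progenitor division, axon growth and synapse formation.

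The file is a table of 1 comparison with 1 line per gene. Values for single libraries, and so depth per library and overlap of the groups sample by sample, were not analysed here. The mean normalized count is an average over the libraries, the means of all genes sum to 30768012, and the error given with a fold change is the standard error (SE) that the authors listed. The 95% intervals were computed from that SE. Which of the groups is the numerator is not stated in the header. Positive values are read as higher with AA147, the reading under which the NRF2 target Nqo1, chosen after its values were seen, is higher (0.93, SE 0.067, per the authors' deposited table), and every direction below depends on it.

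The labelled cell type was checked against marker lists. Of 21 neuronal markers, 6 had a row in the authors' deposited table, led by Dlg4, Tubb3 and Syn1 with means of 1653, 1199 and 562, while Rbfox3, Map2, Snap25, Syp and Dcx had none. Of 12 fibroblast or mesenchymal markers 11 had a row, led by Col1a2, Vim and Col1a1 with means of 254004, 152806 and 139176 per the authors' deposited table. Negative calls were listed for 6 of these 11, where 11.1% of all tested genes were called negative, and positive calls for 0, where 9.05% were. The called genes were Col1a1, Col1a2 and Col3a1, Pdgfra, Pdgfrb and Dcn, with log2 fold changes from -1.52 to -0.81, while Fn1, Vim, Thy1, Acta2 and Postn lay at -0.11, -0.08, -0.03, 0.01 and 0.12 and were not called, per the authors' deposited table. The summed level of the 11 genes implied by the deposited means and fold changes was 823222 normalized counts in vehicle and 477955 in AA147, and Col1a2, Col1a1 and Col3a1 were the most abundant of the genes that fell. The astrocyte, oligodendrocyte, microglial and endothelial lists, 22 markers in all, had 10 rows, of which Slc1a3 alone had a mean of 100 or more. Called markers outside the mesenchymal list were the astrocyte marker Slc1a3 at -1.30 (SE 0.089), the neuronal Tubb3 at 0.43 (SE 0.092) and the macrophage marker Csf1r at 0.95 (SE 0.34, mean 48.0), as log2 fold changes per the authors' deposited table. In such bulk libraries fewer cells of a type and less RNA per cell cannot be told apart. The part of these markers in the results below was not tested.

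AA147 went with lower transcript levels of 7 Wnt pathway genes. These were the ligand Wnt5a, the receptors Fzd1, Fzd2, Fzd4 and Ryk, the R-spondin receptor Lgr4 and the transcription factor Tcf7l1. In the authors' deposited table they made up 24.1% of the 29 tested genes, where 11.1% of all 13597 tested genes were called negative and 20.2% were called in either direction. None of the 29 was called positive by the authors' DESeq2 test, where 9.05% of all genes were, and 7 of the uncalled genes had an unadjusted p under 0.05, 4 with a positive and 3 with a negative fold change. Above a mean of 100 were 23 of the 32, of which 30.4% were called, beside 23.8% of all genes above that mean (13.1% negative and 10.7% positive). The 29 tested genes had a median log2 fold change of -0.05, and that of all tested genes 0.01. The called changes ran from -0.29 to -0.67 per the authors' deposited table, with a median size of 0.48 beside 0.35 for all called genes.

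**Figure D1:**
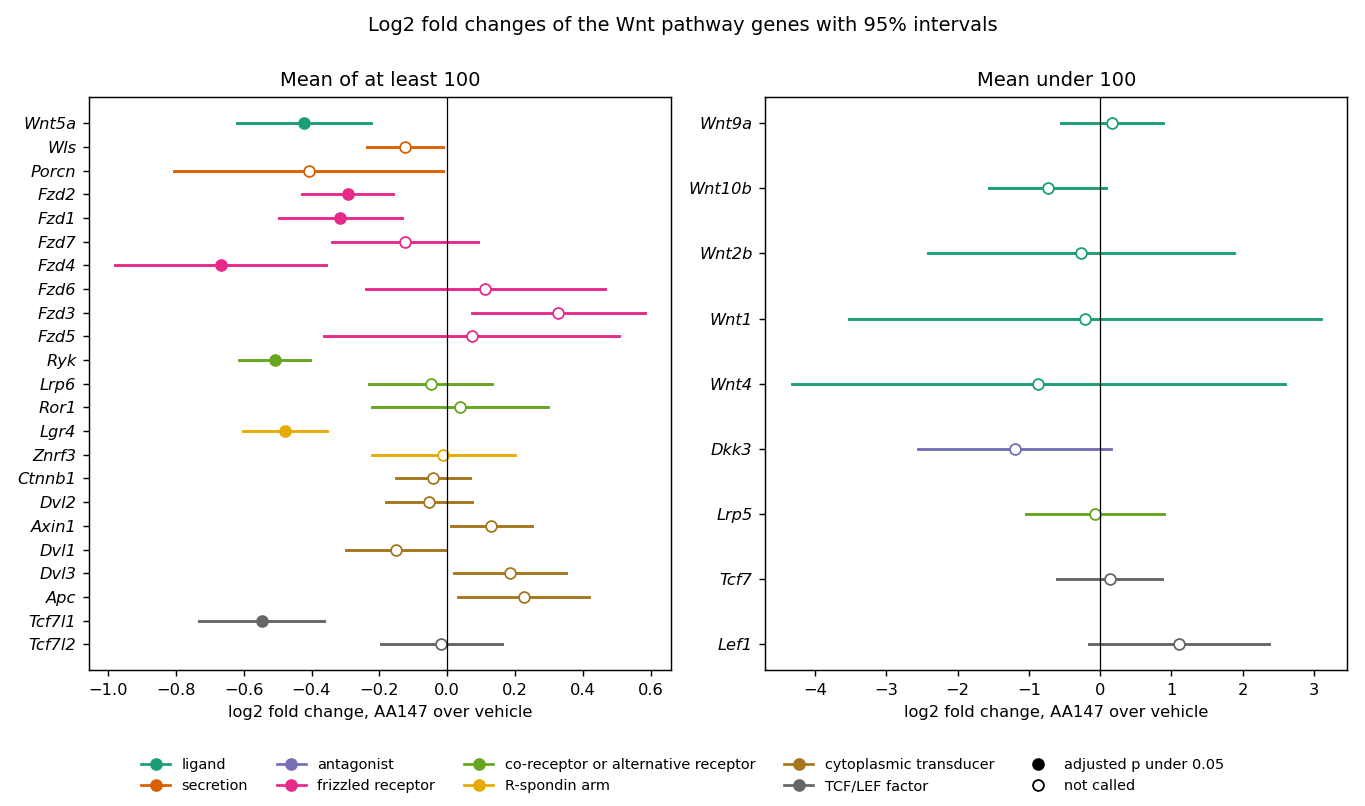
Log2 fold changes (x axis, AA147 over vehicle) of the 32 Wnt pathway genes, one per line and coloured by role, with 95% intervals from the authors' SE; filled points have an adjusted p under 0.05. The 7 filled points all lie left of 0, between -0.29 and -0.67, and the intervals of the genes below a mean of 100 in the right panel all cross 0.

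The sequence just before the transcription start is shown for Ryk, Lgr4 and Tcf7l1, the called genes with the lowest adjusted p that have an entry in the RefSeq promoter table for GRCm38.p6. Each line holds the 250 bases before the start, 5′ to 3′ on the strand of the gene, for Ryk chr9:102834670-102834919 (+ strand), for Lgr4 chr2:109917397-109917646 (+ strand) and for Tcf7l1 chr6:72789046-72789295 (- strand). Capitals mark matches, on either strand, to the antioxidant response element TGACNNNGC read by NRF2, the CCACG part of the ER stress element read by ATF6, the CCAAT box that is its other part, the UPR element TGACGTG and the TCF/LEF site CTTTGAT.
Ryk: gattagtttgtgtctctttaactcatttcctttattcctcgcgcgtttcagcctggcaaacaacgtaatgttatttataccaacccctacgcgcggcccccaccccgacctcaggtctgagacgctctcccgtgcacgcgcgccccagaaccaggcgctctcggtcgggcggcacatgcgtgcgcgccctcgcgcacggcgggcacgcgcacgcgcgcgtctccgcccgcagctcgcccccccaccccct
Lgr4: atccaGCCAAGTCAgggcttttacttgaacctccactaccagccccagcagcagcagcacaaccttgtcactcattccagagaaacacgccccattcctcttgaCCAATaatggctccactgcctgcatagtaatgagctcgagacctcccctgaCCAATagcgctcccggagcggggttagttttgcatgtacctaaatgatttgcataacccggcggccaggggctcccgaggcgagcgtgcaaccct
Tcf7l1: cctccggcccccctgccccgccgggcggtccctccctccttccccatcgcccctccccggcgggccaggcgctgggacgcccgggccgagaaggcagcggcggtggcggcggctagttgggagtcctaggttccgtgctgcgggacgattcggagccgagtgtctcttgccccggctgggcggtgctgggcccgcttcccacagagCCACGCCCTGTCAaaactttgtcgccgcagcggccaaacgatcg

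The Ryk window held none of the 5 motifs, with 33 CpG pairs and 65.2% G or C. The Lgr4 window held 3 matches, an antioxidant response element and a pair of CCAAT boxes, with 10 CpG pairs and 55.6% G or C. The Tcf7l1 window held an antioxidant response element that overlaps a CCACG by 1 base, with 29 CpG pairs and 73.6% G or C. In all, 21 of the 32 genes had 27 such windows, with a median G or C content of 66.8% beside 52.4% in all 32851 windows. The antioxidant response element was in 4 of the 27 windows (14.8%, beside 10.2% of all windows), CCACG in 8 (29.6%, beside 28.3%), the CCAAT box in 6 (22.2%, beside 33.8%), the UPR element in 1 (3.70%, beside 1.65%) and the TCF/LEF site in 0 (beside 3.21%). These letters are a description of the windows and say nothing of what binds there.

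Of 19 mouse Wnt ligands, 6 had a row in the authors' deposited table, and Wnt5a, a ligand best known for signalling without beta-catenin, was the most abundant. Its mean of 770.1 normalized counts came to 107 per 1000 transcript bases, 82.9% of the ligand level on that scale. The mean and fold change together imply 882 normalized counts in vehicle and 658 in AA147. Wnt5a transcripts fell by 25.4%, a log2 fold change of -0.42 (SE 0.10, adjusted p 0.00036 per the authors' deposited table), with an interval from -0.62 to -0.23. Wnt9a and Wnt10b, ligands of the canonical branch, had means of only 40.8 and 30.5 per the authors' deposited table. Wnt9a had a log2 fold change of 0.17 (SE 0.36, adjusted p 0.813) there, and Wnt10b one of -0.73 (SE 0.42, adjusted p 0.222). The interval of Wnt10b, from -1.55 to 0.08, holds both no change and a fall larger than that of Wnt5a. Wnt2b, Wnt1 and Wnt4 had means from 1.79 to 4.52 and no adjusted p per the authors' deposited table. The exons of Wnt1 and Wnt10b overlap on opposite strands in GENCODE M39, over 20.6% of the exon bases of Wnt1, and reads from that stretch cannot be assigned to either.

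Both genes for Wnt secretion had a row in the authors' deposited table. Wls, the carrier that brings Wnts to the cell surface, had a mean of 9104 and 2542 normalized counts per 1000 bases, which ranked it at 3 among the 32 genes. Its log2 fold change was -0.12 (SE 0.058, adjusted p 0.116 per the authors' deposited table), and it was not called. Porcn, the acyltransferase that attaches the lipid to Wnts, had a mean of 192 and a log2 fold change of -0.41 (SE 0.20, adjusted p 0.148) per the authors' deposited table. Porcn thus had nearly the fold change of Wnt5a with an SE larger than that of Wnt5a, and its interval ran from -0.81 to -0.01. Dkk3, a divergent member of the Dickkopf family, was the only secreted antagonist of the rule with a row, at a mean of 10.7 and a log2 fold change of -1.20 (SE 0.69, adjusted p 0.233) per the authors' deposited table.

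**Figure D2:**
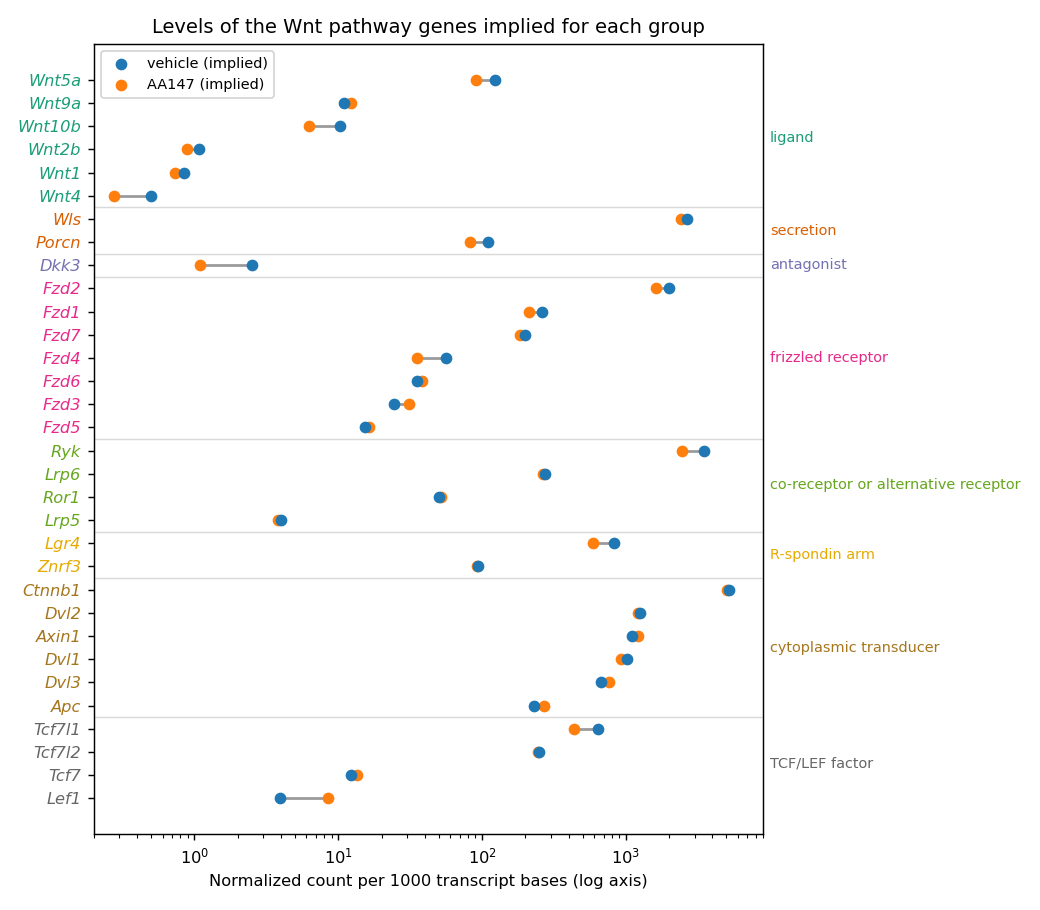
Levels of the 32 Wnt pathway genes as normalized counts per 1000 transcript bases (x axis, log scale), grouped by role, with the values implied for vehicle (blue) and AA147 (orange) by the deposited mean and fold change and no error drawn. Ctnnb1, Ryk, Wls and Fzd2 lead. Among the called genes, the AA147 point stands clearly to the left of the vehicle point in Wnt5a, Fzd4, Ryk, Lgr4 and Tcf7l1. Dkk3, Wnt4 and Wnt10b, with means under 100 and not called, show a larger shift to the left, and Lef1 shows one to the right.

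Frizzleds are the receptors that bind Wnts directly, and 7 of the 10 had a row in the authors' deposited table, each with a mean of 100 or more. Fzd2 held 76.5% of the frizzled level per 1000 bases, followed by Fzd1 with 10.0% and Fzd7 with 8.15%. Fzd2 had a mean of 6603, implying 7272 normalized counts in vehicle and 5934 in AA147. It fell by 18.4%, a log2 fold change of -0.29 (SE 0.069, adjusted p 0.000268 per the authors' deposited table). Fzd1 had a mean of 991, implying 1099 in vehicle and 883 in AA147, and fell by 19.6%, a log2 fold change of -0.32 (SE 0.093, adjusted p 0.00585 per the authors' deposited table). The intervals of Fzd1, from -0.50 to -0.13, and Fzd2, from -0.43 to -0.16, overlap nearly in full. Fzd4, which also serves as the receptor for norrin, was less abundant, with a mean of 306 and 45.5 normalized counts per 1000 bases. Fzd4 fell by 37.0%, from an implied 375 to 236, by estimate more than any other of the 7 called genes. Its log2 fold change was -0.67 (SE 0.16, adjusted p 0.000347 per the authors' deposited table). The interval of Fzd4, from -0.98 to -0.36, includes the values of Wnt5a, Ryk, Lgr4 and Tcf7l1.

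The other four frizzleds were not called. Fzd7, close in sequence to Fzd1 and Fzd2, had a log2 fold change of -0.13 (SE 0.11, adjusted p 0.485) at a mean of 568 per the authors' deposited table, and its interval from -0.34 to 0.09 includes the values of both relatives. Fzd6 and Fzd5 lay at 0.11 and 0.07 with SEs of 0.18 and 0.22 per the authors' deposited table. Fzd3, known for its part in axon guidance, lay at 0.33 (SE 0.13, adjusted p 0.0574) per the authors' deposited table, and with the adjustment recomputed over genes with a mean of 100 or more its adjusted p was 0.0488. The interval of Fzd3, from 0.07 to 0.58, does not overlap that of Fzd1, Fzd2 or Fzd4. Summed over the 7 genes, the implied frizzled level went from 2578 to 2134 normalized counts per 1000 bases, a difference of -17.2%, and Fzd2 made up 77.0% of it in vehicle and 75.9% in AA147.

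Ryk, a receptor with an inactive kinase domain that binds Wnts including Wnt5a, was the most abundant receptor of the 32 genes per length. Its mean of 8779 implies 10310 normalized counts in vehicle and 7247 in AA147. Ryk fell by 29.7%, a log2 fold change of -0.51 (SE 0.054), and had the lowest adjusted p of the 32 genes, 2.86e-19, per the authors' deposited table. The canonical co-receptors did not pass the test. Lrp6 had a mean of 2603 and a log2 fold change of -0.05 (SE 0.093, adjusted p 0.783) per the authors' deposited table, with an interval from -0.23 to 0.13. Lrp5 had a mean of only 20.3 and a log2 fold change of -0.07 (SE 0.49) per the authors' deposited table, and its interval, from -1.04 to 0.89, leaves smaller changes in either direction undetectable at this depth. Ror1, a receptor tyrosine kinase that also takes Wnt5a as a ligand, lay at 0.04 (SE 0.13, adjusted p 0.895 per the authors' deposited table), and its interval from -0.22 to 0.30 does not overlap that of Ryk.

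R-spondin signalling works against the ubiquitin ligases Znrf3 and Rnf43, which remove Frizzleds from the surface. Of the 9 genes of this arm, the receptor Lgr4 and the ligase Znrf3 had a row in the authors' deposited table. Lgr4 had a mean of 3690.2, implying 4296 normalized counts in vehicle and 3085 in AA147. It fell by 28.2%, a log2 fold change of -0.48 (SE 0.063, adjusted p 1.61e-12 per the authors' deposited table), with an interval from -0.60 to -0.35. Znrf3, with a mean of 595, lay at -0.01 (SE 0.11, adjusted p 0.964 per the authors' deposited table). Its interval, from -0.22 to 0.20, does not overlap that of Lgr4.

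The cytoplasmic transducers had the highest summed level per 1000 bases of any role. Ctnnb1 was the most abundant of the 32 genes, with a mean of 18708 and 5137 normalized counts per 1000 bases. It had a log2 fold change of -0.04 (SE 0.056, adjusted p 0.675 per the authors' deposited table), whose sign turned when a trend on length, GC content and mean was subtracted. Its interval, from -0.15 to 0.07, corresponds to a level in AA147 of 0.90 to 1.05 times that in vehicle. The Dishevelled genes Dvl1, Dvl2 and Dvl3 lay at -0.15, -0.05 and 0.19 with adjusted p-values of 0.144, 0.645 and 0.104 per the authors' deposited table. Axin1 and Apc, the scaffolds of the destruction complex, had means of 4382 and 3201 and log2 fold changes of 0.13 (SE 0.061, adjusted p 0.117) and 0.23 (SE 0.098, adjusted p 0.0895) per the authors' deposited table. None of the 6 genes was called by the authors' DESeq2 test, although Apc, Axin1, Dvl1 and Dvl3 had an unadjusted p under 0.05 there, 3 of them positive. The summed level implied for the 6 genes was 9503 normalized counts per 1000 bases in vehicle and 9442 in AA147. The exons of Dvl2 overlap those of Acadvl on the opposite strand over 19.6% of their bases, and those of Dvl1 overlap Tas1r3 over 39.3%. Acadvl had a mean of 5676 and a log2 fold change of -0.26, whereas Tas1r3 had a mean of only 21.6, per the authors' deposited table. The value of Dvl2, with a mean of 3743, is thus less certain in libraries without strand. For Dvl1, with a mean of 3329, the scarce Tas1r3 leaves less room for such reads.

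TCF/LEF factors bind DNA and recruit beta-catenin, and Tcf7l1 is known mainly as the repressor of the family. All 4 had a row in the authors' deposited table. Tcf7l1 held 66.9% of their summed level per 1000 bases and Tcf7l2 30.7%. Tcf7l1 had a mean of 1828, implying 2170.4 normalized counts in vehicle and 1486 in AA147, and fell by 31.5%, a log2 fold change of -0.55 (SE 0.094, adjusted p 1.75e-07 per the authors' deposited table). Tcf7l2 had a mean of 1019 and a log2 fold change of -0.02 (SE 0.091, adjusted p 0.931 per the authors' deposited table). The interval of Tcf7l1, from -0.73 to -0.36, and that of Tcf7l2, from -0.20 to 0.16, do not overlap. Tcf7 and Lef1 were scarce, with means of 44.8 and 15.7 per the authors' deposited table. Lef1 had the highest fold change of the 32 genes, 1.11, but with an SE of 0.65 and an adjusted p of 0.239 per the authors' deposited table it was not called, and its interval ran from -0.16 to 2.37.

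**Figure D3:**
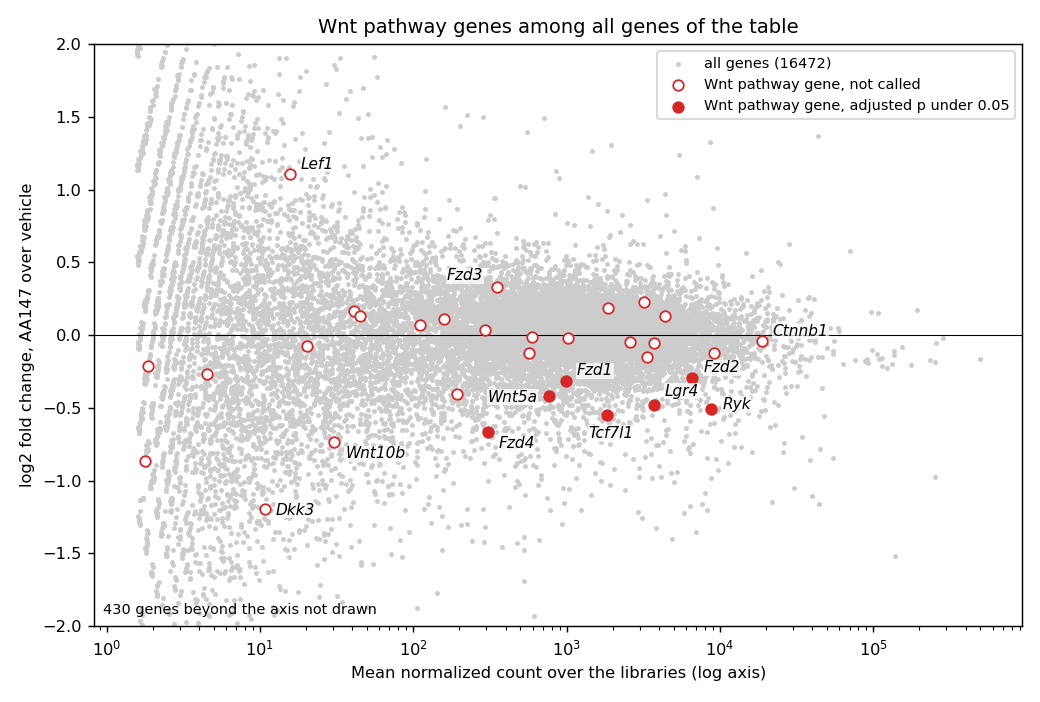
Log2 fold change (y axis, AA147 over vehicle) against mean normalized count (x axis, log scale) for all genes of the table in grey and the 32 Wnt pathway genes in red, filled where the adjusted p was under 0.05. The 7 called genes have means from 306 to 8779, and Lef1 and Dkk3 reach 1.11 and -1.20 at means of 15.7 and 10.7, where the grey points spread as widely.

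Precision followed the mean. Among the 23 genes with a mean of 100 or more, the SE ran from 0.054 to 0.22 with a median of 0.093, and among the 6 tested genes below that mean from 0.36 to 0.69. The SE was between 0.89 and 1.41 times the median SE of the 100 genes on either side in the order of the mean, and the highest ratio was that of Apc. Of the 16 uncalled genes with a mean of 100 or more, 13 had an interval within 0.5 of no change on either side. The exceptions were Porcn, Fzd3 and Fzd5. All 7 called genes kept their call at an adjusted p under 0.01, after centring and after subtraction of the trend, while Ryk, Lgr4 and Tcf7l1 alone kept it with a Bonferroni adjustment and Fzd4, Ryk and Tcf7l1 alone with a limit of 0.5 on the log2 scale.

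The rest of the pathway was followed with 6 further lists, of which 105 genes were tested, 13 called positive and 17 negative. That is 28.6% in all, beside 20.2% of all tested genes and 23.8% of those with a mean of at least 100. The lists were chosen with earlier results of these data known, so these shares describe the lists and are not tests. Values given for these lists are log2 fold changes. Other surface and secreted modulators had 9 of 21 genes with a row in the authors' deposited table. Of these 9, 5 were called, all negative, and the median of the 9 was -0.31. That is 55.6%, beside 11.1% negative among all tested genes and 13.1% among those with a mean of at least 100. Apcdd1, a membrane inhibitor of Wnt signalling, fell by 41.9%, a log2 fold change of -0.78 (SE 0.065) at a mean of 6153 per the authors' deposited table. Gpr124 (Adgra2), a co-receptor for WNT7 ligands, fell, at -0.71 (SE 0.075), and Igfbp4, a secreted binding protein for insulin-like growth factors that can also block Wnt receptors, at -0.54 (SE 0.12) per the authors' deposited table. The glypican Gpc6 and the Wnt inhibitor Tpbg also fell, at -0.41 and -0.31 per the authors' deposited table. Reck, the partner of Gpr124, lay at -0.29 (SE 0.13, adjusted p 0.0876 per the authors' deposited table) and was not called.

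Among nuclear cofactors of beta-catenin, 4 of 21 tested genes were called negative and 1 positive per the authors' deposited table, 23.8% in all and near the 20.2% of all tested genes. The corepressor Tle2 had the largest change, -1.32 (SE 0.21, adjusted p 1.01e-08 per the authors' deposited table) at a mean of 169. Its relatives Tle1, Tle3 and Tle4, each with a mean over 1000, lay at -0.01, 0.09 and -0.07 per the authors' deposited table and were not called. Aes (Tle5), a short member of that family, fell, at -0.39 (SE 0.067), and Tbl1x and Ctbp1 at -0.33 and -0.16, whereas the acetyltransferase gene Crebbp rose, at 0.30 (SE 0.081) per the authors' deposited table.

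Of 22 tested genes for the destruction complex and other cytoplasmic regulators, 3 were called positive and 1 negative per the authors' deposited table, 18.2% in all and near the 20.2% of all tested genes. The casein kinase gene Csnk1e rose, at 0.39 (SE 0.071) per the authors' deposited table. Btrc, the ubiquitin ligase adaptor that recognises phosphorylated beta-catenin, rose, at 0.35 (SE 0.086) there. The kinase gene Gsk3a rose, at 0.18 (SE 0.071, adjusted p 0.0495), just past the threshold, while Csnk1g2 fell, at -0.18 per the authors' deposited table. The 3 positive calls became 2 at an adjusted p under 0.01, after centring and with Benjamini-Hochberg over every gene with a p. Gsk3b, the other GSK3 kinase of the complex, lay at 0.02 (SE 0.085, adjusted p 0.906 per the authors' deposited table). The median of this list was 0.03.

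Of 12 genes for Wnt secretion and trafficking, 25.0% were called, and of 17 tested genes for planar cell polarity and other branches without beta-catenin 17.6%, both near the 20.2% of all tested genes. Of the first list, the cargo receptors Tmed3 and Tmed10 fell, at -0.33 and -0.29, and Atp6ap2, an accessory protein of the proton pump, rose, at 0.26 per the authors' deposited table. Among the polarity genes, Vangl1, a core polarity protein, and the phospholipase gene Plcb4 rose, at 0.31 and 0.61, and Camk2d fell, at -0.20 per the authors' deposited table. Vangl2 lay at 0.35 (SE 0.14, adjusted p 0.067 per the authors' deposited table), close to the value of Vangl1 with a larger SE. The medians of both lists were within 0.01 of no change among tested genes.

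Target genes of beta-catenin went both ways. Of 24 tested, 6 were called positive and 4 negative per the authors' deposited table, with a median of 0.04. That is 41.7% in all, beside 20.2% of all tested genes and 23.8% of those with a mean of at least 100. Fosl1, Gja1, Sox9 and Myc rose, at 0.44, 0.31, 0.29 and 0.25, and Plaur and Cd44 at 0.24 and 0.20, per the authors' deposited table. Wisp2 (Ccn5), Snai2, Ephb3 and Id2 fell, at -0.97, -0.43, -0.36 and -0.26 per the authors' deposited table. Ccnd1, the cyclin D1 gene often used as a readout of beta-catenin, lay at 0.11 (SE 0.073, adjusted p 0.304 per the authors' deposited table). Many of these targets are controlled by other signals as well. Axin2, Nkd1, Notum, Lgr5, Rnf43 and Sp5, which are used as more specific readouts, had no row and are not analysed here.

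**Figure D4:**
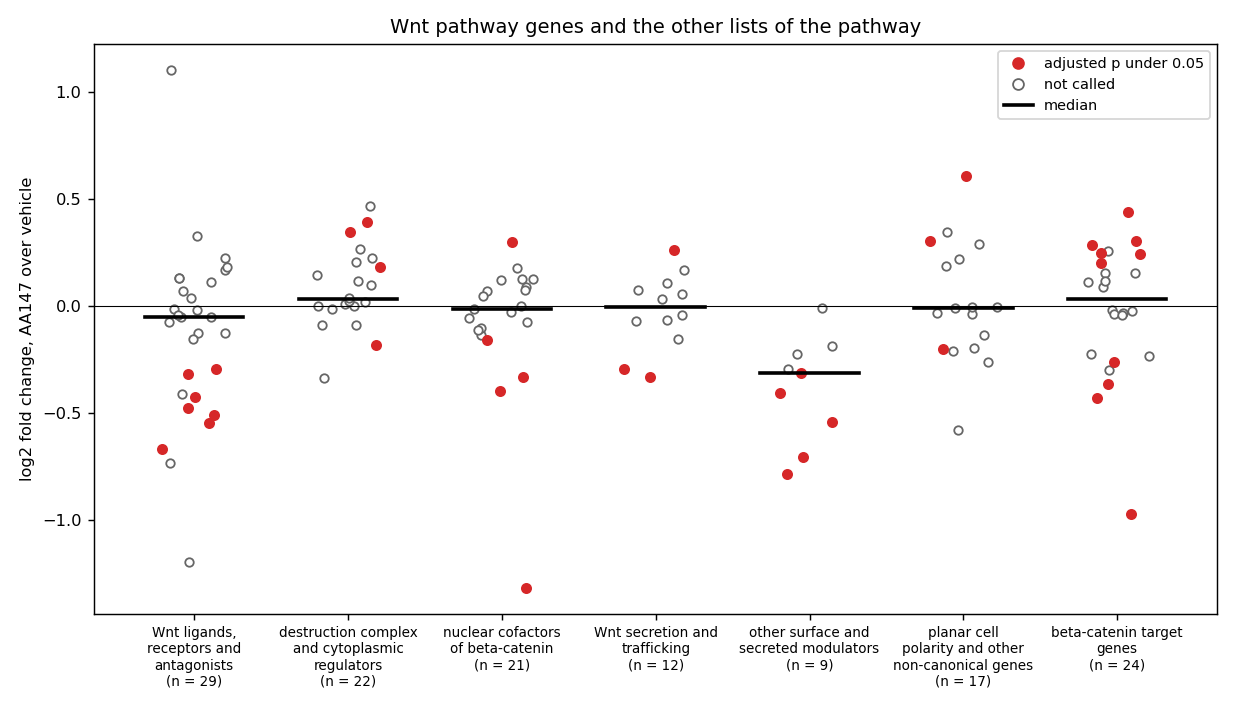
Log2 fold changes (y axis, AA147 over vehicle) of the tested Wnt pathway genes and of the tested genes of 6 further lists, 1 point per gene, red where the adjusted p was under 0.05, with the median as a bar. The called Wnt pathway genes and the 5 called surface and secreted modulators all lie below 0, and the called beta-catenin targets lie on both sides.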

How the data were processed

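RNA from 6 libraries of HT22 cells was compared by the authors in 1 table. Per the submitters' processing notes, DESeq2 and genome build mm9 were used, and the aligner, counter and annotation are not given in the sources used here. Per the file headers, the values the authors deposited are, per gene, a normalized count averaged over libraries (a signal), a log2 fold change and its SE, a test score (fold change over SE) and a p-value, raw and adjusted. Adjusted values matched Benjamini-Hochberg over 13597 genes to within 7.58e-07, and 2875 genes with a mean of at most 8.41 had none. No test between libraries could be made from these values. The count test planned in case of counts did not apply, so the deposited calls (adjusted p under 0.05, by sign) were read as they stand.

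Computed here were 95% intervals (fold change ± 1.96 SE), group levels implied by mean and fold change, and levels per 1000 bases of the GENCODE M39 canonical transcript (GRCm39, used for lengths, GC content and exon overlaps only). The 32 symbols all matched RefSeq (GRCm38.p6), and 4 list entries were found under older symbols. The genes and lists were chosen with earlier results of these data known. Any of the 32 genes could be named, and from each further list the called genes with the largest changes, at most 4 in each direction; other genes named from the lists were chosen after their values were seen. Alternatives were an adjusted p under 0.01, other adjustments, a limit of 0.5 on the log2 scale, a mean of at least 100, centring and a robust trend on length, GC content and mean over 9620 genes. Code was tested on simulated data. Computations ran in Python 3.11.15 with statsmodels 0.14.6, SciPy 1.17.1 and pandas 2.3.3.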

Additional observations from a re-analysis of the deposited data

How the results depend on the processing

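No paired analysis was possible because the table used here holds 1 line per gene, and values per library were not analysed here, and for the same reason leaving out replicates and refits with other tools or normalizations were not run. The 7 negative calls among the Wnt pathway genes remained under 5 of 7 alternatives, and 3 remained with a Bonferroni adjustment and 3 with a limit of 0.5 on the log2 scale. The count of positive calls went from 0 to 1 over genes with a mean of at least 100, by Fzd3. Trend subtraction turned Ror1 to -0.0100 and Ctnnb1 to 0.00013, both uncalled. With the adjustment made over the 9620 genes of the trend alone, Wls at -0.16 (adjusted p 0.0252), Axin1 at 0.16 (0.0394) and Dvl3 at 0.22 (0.0364) passed the threshold. Without the trend, the authors' p-values adjusted over genes with a mean of at least 100 gave 0.0996, 0.101 and 0.0893 for these genes. The cause was not tested. The other 50 values of single genes under centring or trend subtraction kept their sign and call.

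Over all genes, 753 were called positive and 1065 negative at an adjusted p under 0.01. The counts were 250 positive and 524 negative with Bonferroni, and 270 positive and 526 negative with the fold limit. These settings are each stricter by construction. With Bonferroni and with the fold limit, the cytoplasmic regulators had 1 and 0 positive and 0 and 0 negative calls, the nuclear cofactors 0 and 0 positive and 2 and 1 negative, secretion and trafficking 0 and 0 in both directions, the surface modulators 2 and 3 negative, planar cell polarity 0 and 1 positive and 0 and 0 negative, and the target genes 0 and 0 positive and 0 and 1 negative. At an adjusted p under 0.01 the cytoplasmic regulators and planar cell polarity had 0 negative calls, and over genes with a mean of at least 100 secretion and trafficking had 2 positive. Depth limits what can be said of the 9 Wnt pathway genes with a mean under 100.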
